A study of Mus musculus with 14 samples.

Results

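The liver makes most of the complement and coagulation proteins of blood plasma, and transcripts of 42 such genes were followed here in mouse livers with and without hepatocyte Rbbp5 and with and without tunicamycin. The genes were listed by name from the secreted factors of complement, coagulation and fibrinolysis. All 42 were found among the 24411 genes that the count files name. All 42 also held enough reads to be among the 9644 genes tested.

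Bulk liver RNA came from male littermates aged 5 to 7 months. Control mice, called WT, were Rbbp5 flox/flox; Alb-CRE (-/-), and knockout mice, called LKO, were Rbbp5 flox/flox; Alb-CRE (+/-), so both genotypes carried the floxed alleles. Cre was under the albumin promoter, which acts in hepatocytes. Bulk RNA does not show in which cells of an LKO liver Rbbp5 remained. Rbbp5 encodes a shared subunit of the complexes that methylate lysine 4 of histone H3. Mice of both genotypes received an intraperitoneal injection of tunicamycin at 0.05 mg/kg in 500 µl PBS containing 3% DMSO, or vehicle, with injections given from 9 to 10 am and tissue taken after 8 h. There were 3 libraries each of WT vehicle and WT tunicamycin and 4 each of LKO vehicle and LKO tunicamycin. LKO vehicle 3 and 4 differed by little more than sampling noise (chi-square per degree of freedom 1.12, against 3.38 to 25.9 in the 17 other pairs of the same group), so their reads were summed and they counted as 1 sample, named LKO vehicle 3-4. This left 13 samples. The labels call the mice littermates and tie no library to a litter, so p-values measure the spread between these samples.

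The 14 libraries held 6507018 to 13519421 reads on genes, of which 72.5 to 75.5% lay on Rn45s, the ribosomal RNA precursor. The 42 genes took 75906 to 244377 reads per library. Levels are given as CPM, in which a gene's count is scaled to the library's TMM-adjusted total of reads on all genes, Rn45s included. Rbbp5 itself stood at 5.19 ± 1.17 CPM in WT vehicle (SD, n = 3) and 5.37 ± 0.343 in WT tunicamycin (n = 3). It stood at 2.94 ± 1.13 in LKO vehicle (n = 3) and 2.86 ± 0.598 in LKO tunicamycin (n = 4). The lowest WT vehicle sample, at 4.07 CPM, overlapped the highest LKO vehicle sample, at 4.15 CPM.

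Complement is a chain of plasma proteases that deposit C3 fragments on a surface and end in a membrane pore. Coagulation is a second chain that ends when thrombin cuts fibrinogen into fibrin, and fibrinolysis dissolves the clot again through plasmin. Nearly all of these proteins are glycoproteins that hepatocytes pass through the endoplasmic reticulum, and several of them are acute phase proteins, whose genes respond to inflammatory signals. Tunicamycin blocks the first step of N-linked glycosylation and so disturbs protein folding in the endoplasmic reticulum.

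Among the 42 genes, the 3 fibrinogen genes had the largest mean difference with tunicamycin, and they sit side by side on mouse chromosome 3. In mm10 coordinates of the deposited loci, Fgg spans 83007896 to 83015049, Fga spans 83026153 to 83033617 and Fgb spans 83042305 to 83049790. Their upstream sequences are shown because acute phase transcription factors of the STAT and C/EBP families have known binding motifs. The 250 bases before each annotated start are RefSeq sequence (build GRCm38.p6, the assembly of mm10), written 5′ to 3′ on the gene's strand. They cover chr3:83025903-83026152 on the plus strand for Fga, chr3:83049864-83050113 on the minus strand for Fgb and chr3:83007474-83007723 on the plus strand for Fgg. Capitals mark matches to TTCNNNGAA, the STAT motif, or to TTGCNNAA, a C/EBP motif, on either strand.
Fga: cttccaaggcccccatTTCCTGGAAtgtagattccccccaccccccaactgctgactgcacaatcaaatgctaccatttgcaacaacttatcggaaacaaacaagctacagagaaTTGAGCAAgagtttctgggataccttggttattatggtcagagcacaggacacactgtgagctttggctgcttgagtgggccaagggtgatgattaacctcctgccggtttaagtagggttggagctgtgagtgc
Fgb: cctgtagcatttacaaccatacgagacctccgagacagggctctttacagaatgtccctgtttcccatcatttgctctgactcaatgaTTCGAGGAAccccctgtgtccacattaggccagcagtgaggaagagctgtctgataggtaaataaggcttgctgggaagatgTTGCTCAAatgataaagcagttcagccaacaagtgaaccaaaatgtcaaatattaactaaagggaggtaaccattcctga
Fgg: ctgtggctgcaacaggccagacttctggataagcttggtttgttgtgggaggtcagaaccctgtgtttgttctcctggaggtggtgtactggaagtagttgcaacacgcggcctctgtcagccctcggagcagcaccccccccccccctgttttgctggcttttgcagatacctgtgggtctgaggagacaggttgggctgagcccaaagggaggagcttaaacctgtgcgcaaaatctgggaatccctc
The Fga stretch held a STAT match, TTCCTGGAA, at bases -234 to -226 and a C/EBP match, TTGAGCAA, at bases -135 to -128, counted back from the start. The Fgb stretch held TTCGAGGAA at bases -162 to -154 and TTGCTCAA at bases -80 to -73. The Fgg stretch held neither motif. For both Fgg and Fgb the RefSeq start lies upstream of the deposited locus, so their printed stretches do not adjoin that locus. Of the 42 genes, 33 have an entry in the promoter table. Within 300 bases (250 before the start and 50 after it), 8 of the 33 genes held a STAT match, against 8.30% of all 32851 promoters. Besides Fga and Fgb, these were C1ra, C8a, F9, Masp2, Pros1 and Vtn. A C/EBP match was found for 12 of the 33 genes, against 10.8% of all promoters. Besides Fga and Fgb, the C/EBP group included C3 (TTGCGAAA, from base -45) and Kng2 (TTGAGCAA, from base -112). The rest of the group was C1ra, C9, Cpb2, F9, F11, Hrg, Klkb1 and Serpinc1. None of the windows of these 33 genes held the HNF1 motif, CAAAGTCCA (HNF4), TGACGTGG (the UPR element) or the ER stress response element, motifs that 0.00913, 0.475, 0.676 and 0.119% of all promoters hold. A match is only a run of letters and does not show that a factor binds there.

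Per transcript length, the 42 genes spanned 87.7-fold in WT vehicle livers. On the FPKM scale, in which fragments are scaled to transcript length and depth, Fgb stood at 265 ± 44.1, Fgg at 241 ± 35.0 and Fga at 238 ± 26.0 (SD, n = 3). These 3 chains of fibrinogen overlapped each other and lay above all other members. C3 at 115 ± 7.61 and Kng1, high molecular weight kininogen, at 107 ± 6.14 followed and overlapped each other. Vtn (vitronectin), Serping1 (C1 inhibitor), Serpinc1 (antithrombin), Plg (plasminogen) and Hrg (histidine-rich glycoprotein) lay between 62.4 and 88.6 FPKM. The lowest levels were those of Masp1 at 3.72 ± 0.271, F7 at 3.04 ± 0.684 and C2 at 3.03 ± 0.549, and the last of these overlapped F7. The plot of transcripts per length shows the whole order.

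**Figure D1:**
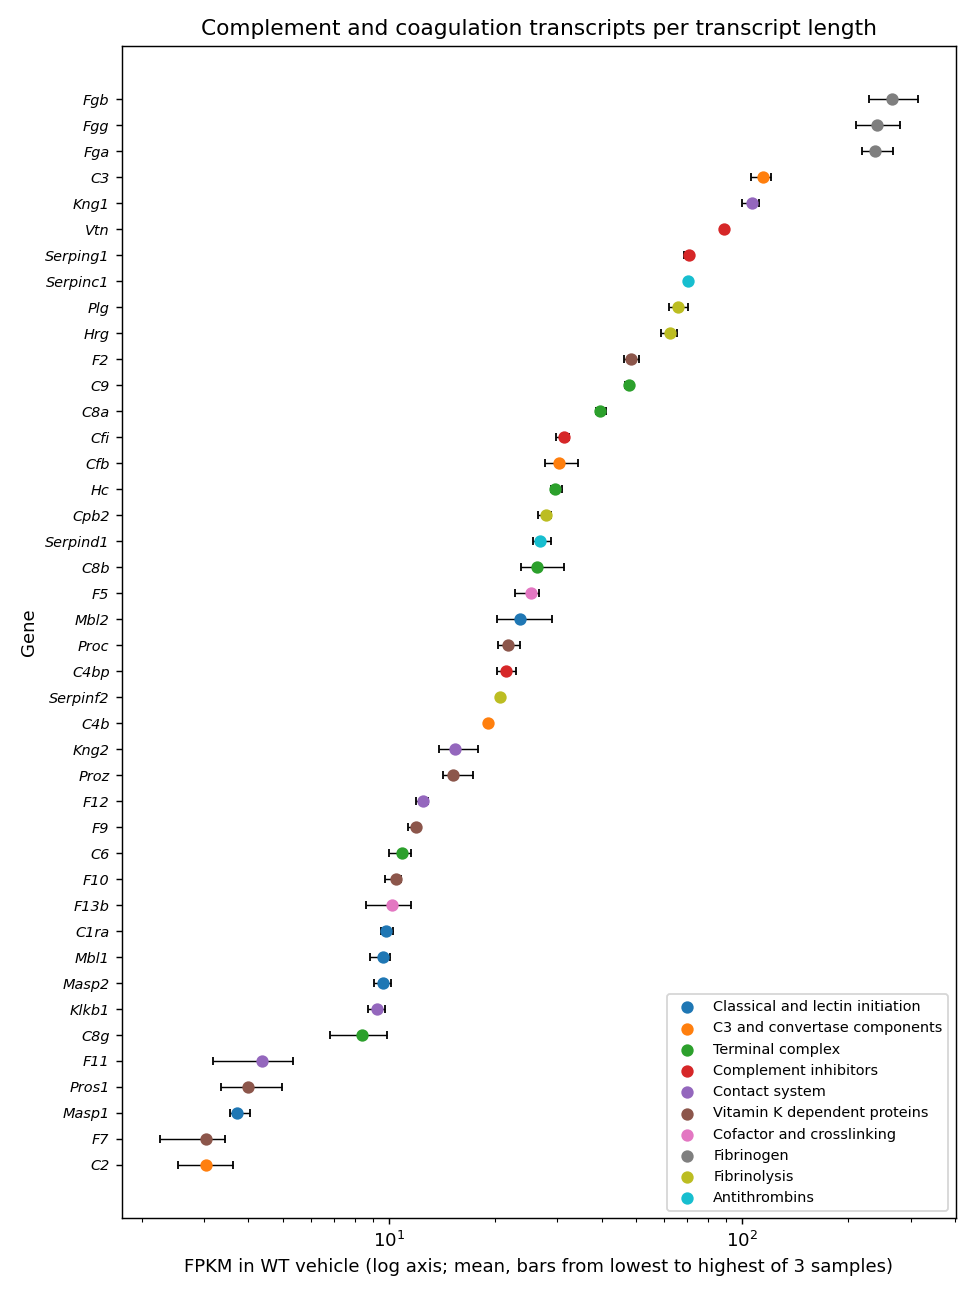
Mean FPKM of each of the 42 genes in WT vehicle livers on a log axis, with bars from the lowest to the highest of 3 samples and colours by role. The 3 fibrinogen genes stand at 238 to 265 FPKM and C2 and F7 at about 3.03.

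Together the 42 genes made up 4.51, 4.64 and 4.95% of the reads outside Rn45s in the 3 WT vehicle livers. The WT tunicamycin livers gave 9.05, 9.16 and 4.45%, so 2 of them lay well above the vehicle range and WT tunicamycin 3 lay below every WT vehicle sample. LKO vehicle samples gave 5.79, 6.88 and 4.70%, and the 4 LKO tunicamycin livers 8.97, 8.11, 8.17 and 7.28%, all above the LKO vehicle range. Fibrinogen and C3 made much of this spread. The 3 fibrinogen genes took 1.29 to 1.64% of reads in WT vehicle and 4.18 and 3.96% in WT tunicamycin 1 and 2. The 38 genes outside fibrinogen and C3 ran from 2.40 to 3.26% over all 13 samples. They took 2.44 to 2.56% in WT vehicle, 3.12 and 3.26% in WT tunicamycin 1 and 2, and 2.40% in WT tunicamycin 3. In LKO they took 2.54 to 3.08% with vehicle and 2.97 to 3.25% with tunicamycin.

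**Figure D2:**
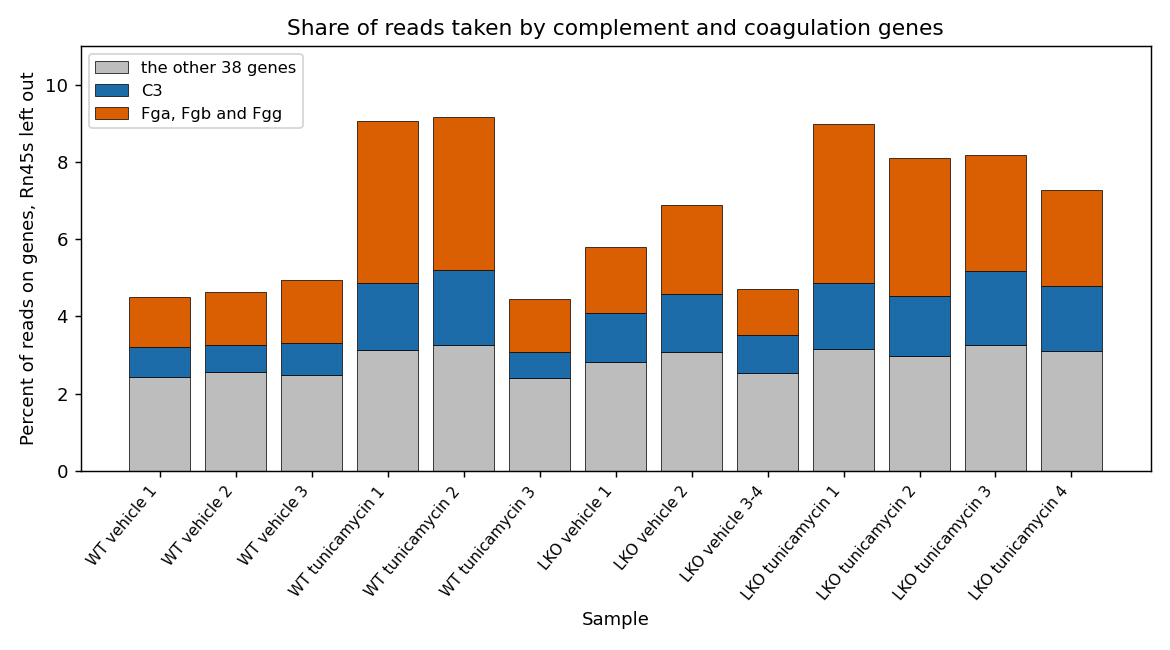
Percent of reads on genes, Rn45s left out, that fell on fibrinogen (Fga, Fgb and Fgg), on C3 and on the other 38 genes, as stacked bars for each of the 13 samples. WT tunicamycin 3 at 4.45% resembles the WT vehicle bars, and the 4 LKO tunicamycin bars reach 7.28 to 8.97%.

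Tunicamycin was first compared with vehicle within each genotype, which asks how the transcripts respond with and without hepatocyte Rbbp5. A gene was called where its p from edgeR's quasi-likelihood test, adjusted over all genes by Benjamini-Hochberg, was under 0.05. In WT 0 of the 42 genes were called, where 0.363% of all genes were. The smallest adjusted p was 0.101, for Fgg. Without adjustment 18 of the 42 had p under 0.05, against 14.8% of all genes. Of these, 17 were higher with tunicamycin (7.93% of all genes) and 1, F13b, was lower (6.85%). CPM did not overlap for 7 that were higher (8.63% of all genes) and 1 that was lower (8.65%). The median log2 fold change of the 42 was 0.28 and that of all genes 0.01, and 32 of the 42 lay above 0, against 51.7% of all genes. DESeq2's Wald test called 10 of the 42 (C3, Serping1, C4bp, Vtn, Kng1, Kng2, Fga, Fgb, Fgg and Cpb2), all higher, against 2.73% of all genes with an adjusted p, and limma on log2(FPKM + 1) called 0, with 9 at an unadjusted p under 0.05, against 1984 of 16398 genes.

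The absence of calls in WT moved with 1 liver. Without WT tunicamycin 3, edgeR called 15 of the 42 genes, all higher, against 6.19% of all genes. These were C3, C4b, Cfb, C8a, Serping1, C4bp, Vtn, Kng1, Kng2, Fga, Fgb, Fgg, Cpb2, Serpinf2 and Hrg. Of the 42 genes, 27 in WT tunicamycin 1 and 32 in WT tunicamycin 2 lay above every WT vehicle sample, but only 8 in WT tunicamycin 3, where 13 lay below and 21 inside the vehicle range. Over all genes tested the shares above the vehicle range were 33.0, 32.5 and 30.1% in the same 3 livers.

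Other genes were read in the same livers. Hspa5, the main chaperone of the endoplasmic reticulum, read 197, 211 and 253 CPM in the WT vehicle livers. WT tunicamycin 1, 2 and 3 gave 854, 313 and 786 CPM for it. Ddit3, the stress factor CHOP, had 26.3, 1.30 and 20.4 CPM there, with WT vehicle between 0.641 and 1.89 CPM. Ddit3 was thus high in livers 1 and 3. In those 3 livers Saa1, serum amyloid A, read 1407, 1428 and 75.6 CPM, with WT vehicle between 20.6 and 67.5 CPM. For Hpx, hemopexin, they gave 2787, 2901 and 696 CPM, with WT vehicle between 443 and 626 CPM. Saa1 and Hpx were thus high in livers 1 and 2. The part of these genes in the result was not tested.

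In LKO, edgeR again called 0 of the 42 genes with tunicamycin, where 0.0311% of all genes were called, and the smallest adjusted p was 0.215, for Kng2. Unadjusted, 11 of the 42 had p under 0.05, against 12.2% of all genes, with 9 higher (5.83%) and 2 lower (6.33%). The median was 0.12 against 0.00454 over all genes, and 31 of the 42 lay above 0, against 50.8%. CPM of 10 genes did not overlap and was higher with tunicamycin, against 5.03% of all genes, and 3 genes did not overlap and were lower, against 6.55%. DESeq2 called 1 of the 42, Kng2, higher, against 1.11% of all genes with an adjusted p, and limma on log2(FPKM + 1) called 0, with 8 at an unadjusted p under 0.05, against 1358 of 16398 genes. With no filter on low counts edgeR called Fgb and Fgg (0.941% of all genes), and without WT tunicamycin 3 it called Kng2 and Fgg (0.674%).

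The interaction, the tunicamycin effect in LKO minus that in WT, tested whether the response depended on the genotype. EdgeR and DESeq2 called 0 of the 42 genes and 0.00% of all genes, and the smallest edgeR adjusted p among the 42 was 0.981. No member had an unadjusted p under 0.05, against 4.91% of all genes (2.13% higher and 2.79% lower). Of the 42 estimates 8 lay above 0, against 46.5% of all genes, and 34 below 0, meaning a smaller value in LKO, with a median of -0.19 against -0.02 over all genes. That count depends on the scaling. With library sizes set by total gene counts 24 lay below 0, with the all-gene median at 0.13 in place of -0.02. Without WT tunicamycin 3, 10 of the 42 reached an unadjusted p under 0.05, all negative, against 744 of 9941 genes. In that fit 0 of the 42 and 2 of all genes were called. The largest of them was C3, at -0.93 ± 0.25 (SE) (edgeR adjusted p = 0.339).

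**Figure D3:**
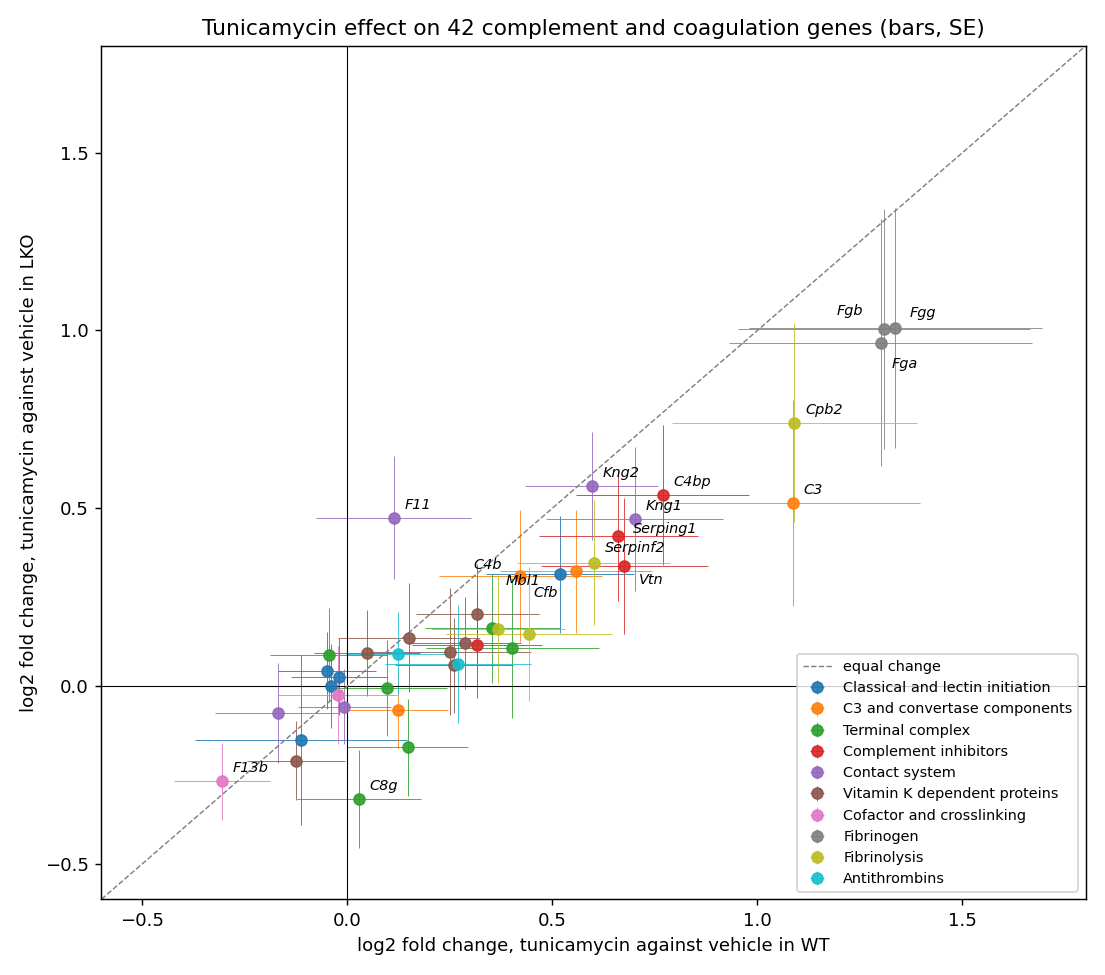
Tunicamycin effect in WT (x axis) and in LKO (y axis), log2 fold change from edgeR, for each of the 42 genes; bars are standard errors and the dashed line marks equal change. Fibrinogen, Cpb2 and C3 lie farthest out, and 34 of the 42 points lie below the line.

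The mean of both tunicamycin effects was also tested. This comparison was added after the estimates within each genotype had been seen, so its calls are not independent of them, and the planned tests within each genotype called 0. Its log2 fold change ± SE is called the mean effect from here on. EdgeR called 10 of the 42 genes, all higher with tunicamycin, against 4.32% of all genes. The 10 were C3, Serping1, C4bp, Kng1, Kng2, Fga, Fgb, Fgg, Cpb2 and Serpinf2. Unadjusted, 21 of the 42 had p under 0.05, 20 higher and 1 lower, against 20.2% of all genes (10.3% higher and 9.91% lower). The median was 0.21 against 0.01 over all genes, and 32 of the 42 lay above 0, against 51.5%. In both genotypes CPM did not overlap and was higher for Serping1 and Kng2 (1.02% of all genes) and lower for F13b (1.64%). The 10 calls were 9 with total-count library sizes (8.40% of all genes), 14 by DESeq2 (7.30%) and 14 with the 14 libraries kept apart (6.89%). Each of these 3 sets held 1 lower call, F13b, and that with total counts lacked Serping1 and Serpinf2. The count rested on few animals, since leaving out single samples gave 1 to 18 calls. Kng2 was the gene called in each of these 13 reduced fits. On log2(FPKM + 1) with no filter limma called 0 of the 42 for the same mean effect, with 14 at an unadjusted p under 0.05, against 2345 of 16398 genes.

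**Figure D4:**
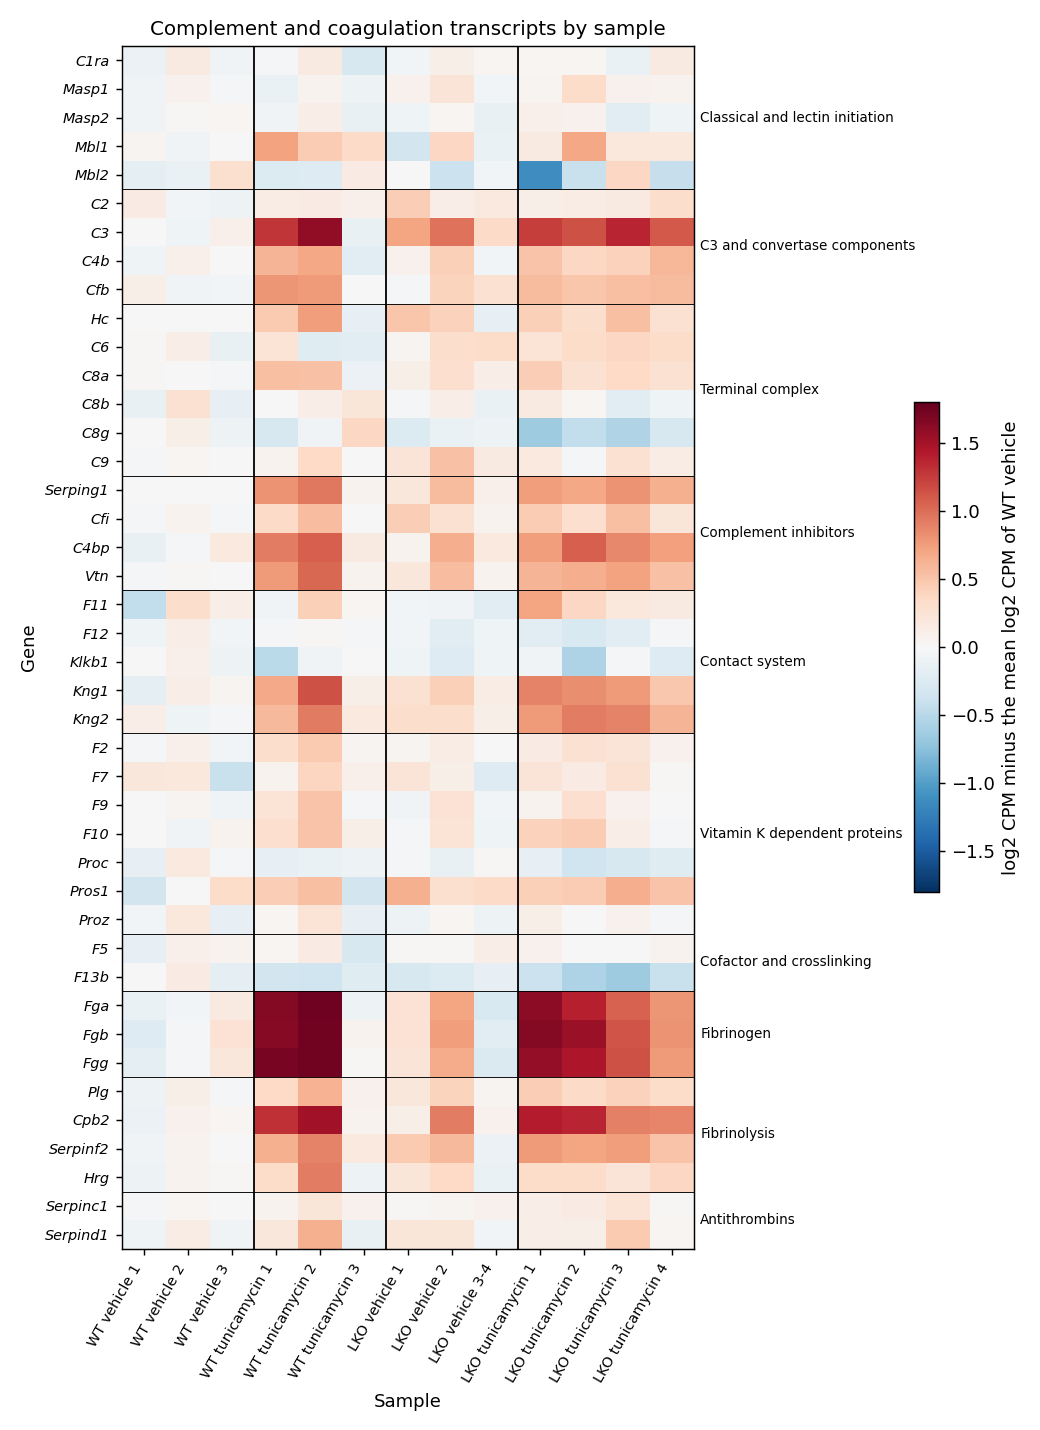
Heat map of log2 CPM minus the mean log2 CPM of WT vehicle for the 42 genes (rows, by role) in 13 samples (columns, by group); red is higher and blue lower. Fibrinogen, C3 and Cpb2 are dark red in WT tunicamycin 1 and 2 and in LKO tunicamycin, and the WT tunicamycin 3 column is pale.

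Classical and lectin initiation gave 0 calls of 5 in every comparison by edgeR. C1ra is the C1r protease of the classical pathway, Mbl1 and Mbl2 are mannose-binding lectins, and Masp1 and Masp2 are the proteases that the lectins carry. C1ra, Masp1 and Masp2 had mean effects of -0.02 to 0.00 on the log2 scale, with SEs of 0.08 to 0.09. Mbl1 read 26.5, 24.5 and 25.5 CPM in WT vehicle and 42.1, 35.0 and 32.3 CPM in WT tunicamycin, and this was the group's gene whose WT samples did not overlap. LKO livers held 20.3, 33.1 and 23.4 CPM with vehicle and 28.5, 41.3, 29.1 and 29.2 CPM with tunicamycin, and these samples overlapped. Its mean effect over both genotypes was 0.42 ± 0.12 (SE) (edgeR adjusted p = 0.0632), so it missed the threshold. Mbl2 was the most variable, at 24.4, 40.6, 69.1 and 39.8 CPM among the 4 LKO tunicamycin livers. C1ra has a close copy, C1rb, so its counts are uncertain.

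Of the 4 genes for C3 and the parts of its convertases 1, C3, was called higher for the mean effect. C3 is the central complement protein, cut by the convertases that C4b and C2 form in the classical and lectin pathways and that Cfb, factor B, forms in the alternative pathway. C3 read 1956, 1872 and 2094 CPM in WT vehicle and 4823, 5951 and 1800.1 CPM in WT tunicamycin. The LKO values were 3224, 3889 and 2515 CPM with vehicle and 4669.9, 4344, 5088 and 4238 CPM with tunicamycin. All 3 LKO vehicle samples lay above all WT vehicle samples, and all 4 LKO tunicamycin samples lay above the LKO vehicle samples. The mean effect of tunicamycin was 0.80 ± 0.21 (edgeR adjusted p = 0.0429), and the effect within WT was 1.09 ± 0.311 with an adjusted p of 0.120.

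C4b and Cfb were not called for the mean effect. C4b read 317 ± 18.4 CPM (SD, n = 3) in WT vehicle and 484, 512 and 279 CPM in WT tunicamycin. Cfb read 256, 227 and 230.0 CPM in WT vehicle and 411, 403 and 236 CPM in WT tunicamycin, and its 4 LKO tunicamycin samples, at 336 to 353 CPM, lay above the LKO vehicle range of 232 to 313 CPM. Their mean effects were 0.37 ± 0.14 and 0.44 ± 0.13, and edgeR's adjusted p were 0.134 and 0.058. C2 lies 87 bases from Cfb on chromosome 17. C2 read 20.4 to 24.2 CPM in WT vehicle and 23.3 to 24.3 CPM in WT tunicamycin, with a mean effect of 0.03 ± 0.08. C4b has a near-identical copy, C4a, so its counts are uncertain.

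The terminal complex, which forms the membrane pore, gave 0 calls of 6 for the mean effect. Hc is complement C5, and C6, C8a, C8b, C8g and C9 encode the later pore proteins. Hc read 545 to 549 CPM in the 3 WT vehicle livers and 759, 917 and 491 CPM in WT tunicamycin. The ratio of C3 reads to Hc reads was 3.41 to 3.84 in WT vehicle, 6.35 and 6.49 in WT tunicamycin 1 and 2, and 3.66 in WT tunicamycin 3. In LKO this ratio was 4.17, 5.34 and 5.08 with vehicle and 6.37 to 6.43 in the 4 tunicamycin livers. Hc had a mean effect of 0.25 ± 0.14 and was not called.

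C8a and C8b are neighbours on chromosome 4 whose proteins pair in the pore, and their values parted. C8a read 323 to 331 CPM in WT vehicle and 476, 470.2 and 304 CPM in WT tunicamycin. C8b read 131 to 175 CPM in WT vehicle and 144 to 168 CPM in WT tunicamycin. Their mean effects were 0.26 ± 0.11 and 0.05 ± 0.10, and edgeR's adjusted p were 0.206 and 0.851, and the difference between the 2 genes was not tested.

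C8g, the small subunit of the same pore protein, had the smallest p of the 42 between genotypes after tunicamycin and was not called. It read 20.2, 23.7 and 32.1 CPM in WT tunicamycin and 15.9, 18.2, 17.0 and 20.3 CPM in LKO tunicamycin. The ranges overlapped by 1 LKO sample, and the difference was -0.50 ± 0.142 (edgeR adjusted p = 0.107). C6 pointed the other way, with 107, 77.0 and 77.5 CPM in WT tunicamycin and 106 to 117 CPM in LKO tunicamycin. Its difference was 0.37 ± 0.134, with an adjusted p of 0.204. C9 read 219 to 226 CPM in WT vehicle and 260.3, 318 and 248 CPM in LKO vehicle, which did not overlap, at 0.31 ± 0.147 and an adjusted p of 0.603.

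Of the 4 complement inhibitors 2 were called higher for the mean effect. Serping1 encodes C1 inhibitor, which also blocks kallikrein and factor XII, C4bp encodes a chain of C4b-binding protein, Cfi encodes factor I, and Vtn encodes vitronectin. Serping1 read 254, 253 and 254 CPM in WT vehicle and 446, 492 and 266 CPM in WT tunicamycin. In LKO it read 291, 379 and 271 CPM with vehicle and 429, 412, 444 and 395 CPM with tunicamycin. Tunicamycin samples did not overlap vehicle samples in either genotype. The mean effect was 0.54 ± 0.13 (edgeR adjusted p = 0.0313).

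C4bp read 103, 110.5 and 128 CPM in WT vehicle and 216, 239 and 127 CPM in WT tunicamycin. LKO livers held 119, 179 and 128 CPM with vehicle and 190.4, 238, 207 and 189 CPM with tunicamycin. Only WT tunicamycin 3 fell inside a vehicle range. The mean effect was 0.65 ± 0.14 (edgeR adjusted p = 0.0219). Vtn, at 359 to 371 CPM in WT vehicle and 617, 749.5 and 379.7 CPM in WT tunicamycin, had a mean effect of 0.51 ± 0.14 and missed the threshold at 0.0505. Cfi had a mean effect of 0.22 ± 0.11, with an adjusted p of 0.282.

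In the contact system both kininogens were called higher for the mean effect and the 3 proteases gave no call. Kng1 and Kng2 encode kininogens, the carriers of bradykinin, and lie 29198 bases apart on chromosome 16 with Hrg beside them. Kng1 read 505, 609.5 and 580.3 CPM in WT vehicle and 902, 1245 and 609 CPM in WT tunicamycin. The LKO values were 682, 757 and 618 CPM with vehicle and 1049, 1005, 955 and 787 CPM with tunicamycin. Only WT tunicamycin 3, at 609 CPM, overlapped its vehicle group. The mean effect was 0.58 ± 0.15 (edgeR adjusted p = 0.0347).

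Kng2 was called as well, and its values separated the treatments in both genotypes. It read 58.3, 51.3 and 52.3 CPM in WT vehicle and 81.0, 103 and 60.7 CPM in WT tunicamycin. In LKO it read 67.1, 67.4 and 57.7 CPM with vehicle and 91.9, 103, 101 and 82.8 CPM with tunicamycin. Each tunicamycin sample lay above each vehicle sample of its genotype, WT tunicamycin 3 included. The effect was 0.60 ± 0.163 in WT and 0.56 ± 0.151 in LKO, and the mean effect of 0.58 ± 0.11 had the smallest edgeR adjusted p of the 42, 0.016. Kng1 and Kng2 are close relatives, so part of their reads may be lost to multiple mapping, and their read ratio ran from 8.67 to 12.1.

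The contact proteases F11, F12 and Klkb1, which are factor XI, factor XII and plasma prekallikrein, had smaller values. F11 read 30.1, 29.8 and 27.1 CPM in LKO vehicle and 50.6, 40.3, 35.5 and 34.6 CPM in LKO tunicamycin, which did not overlap, at 0.47 ± 0.173 and an edgeR adjusted p of 0.305. In WT it overlapped, at 0.11 ± 0.189. Its neighbour Klkb1, 7419 bases away on chromosome 8, had effects of -0.17 ± 0.152 in WT and -0.08 ± 0.140 in LKO. F12 had a mean effect of -0.03 ± 0.08.

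The vitamin K dependent proteins, whose glutamates are carboxylated so that they bind calcium, gave 0 calls of 7. F2 is prothrombin, F7, F9 and F10 are the factors VII, IX and X, and Proc, Pros1 and Proz encode protein C, protein S and protein Z, which restrain clotting. Of these genes F10 had the largest mean effect, 0.26 ± 0.10 (edgeR adjusted p = 0.157). F10 read 61.9 to 67.6 CPM in WT vehicle and 80.5, 92.6 and 69.9 CPM in WT tunicamycin, which did not overlap. F2 read 245, 267 and 243 CPM in WT vehicle and 312, 348 and 260.2 CPM in WT tunicamycin, with a mean effect of 0.20 ± 0.09 and an adjusted p of 0.238. Proc had a mean effect of -0.17 ± 0.08, with an adjusted p of 0.259. F7, F10 and Proz lie within 1502 and 4231 bases of each other on chromosome 8, and F7 and Proz had mean effects of 0.14 ± 0.12 and 0.07 ± 0.09. F7 had the fewest reads of the 42 genes, at 15.9, 15.8 and 10.3 CPM in WT vehicle and 15.7 ± 2.03 CPM (SD, n = 3) in WT tunicamycin, with 11.6 to 16.6 CPM in LKO. F9 and Pros1 had mean effects of 0.16 ± 0.10 and 0.17 ± 0.13.

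F5, the cofactor of factor X, had a mean effect of -0.02 ± 0.10. F13b, the carrier subunit of the fibrin crosslinking enzyme, was the member that was lower with tunicamycin in both genotypes with no overlap. It read 60.6, 67.1 and 54.1 CPM in WT vehicle and 47.9, 47.2 and 52.0 CPM in WT tunicamycin. LKO livers held 49.4, 50.9 and 54.6 CPM with vehicle and 46.2, 41.0, 38.7 and 45.7 CPM with tunicamycin. WT tunicamycin 3 was on the side of its group here. The mean effect was -0.29 ± 0.08 (edgeR adjusted p = 0.0507), just short of a call. F13b was called lower with total-count library sizes, by DESeq2, with the 14 libraries kept apart, by limma on FPKM of at least 1 and without WT tunicamycin 3.

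All 3 fibrinogen genes were called higher by edgeR for the mean effect and, with all 13 samples and the filter on low counts, in neither genotype alone. Fga, Fgb and Fgg encode the alpha, beta and gamma chains, which assemble into fibrinogen inside the hepatocyte. Fga read 1363, 1444 and 1671 CPM in WT vehicle and 4655, 4984 and 1393 CPM in WT tunicamycin. The LKO values were 1779, 2428 and 1234 CPM with vehicle and 4534, 3925, 3116 and 2590.2 CPM with tunicamycin. WT tunicamycin 3 sat inside the WT vehicle range, and all LKO tunicamycin samples lay above all LKO vehicle samples.

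Fgb read 971, 1114 and 1356 CPM in WT vehicle and 3541, 3788 and 1193 CPM in WT tunicamycin, and 1359, 1908 and 991 CPM in LKO vehicle against 3575, 3334, 2490.5 and 1985 CPM in LKO tunicamycin. Fgg read 904, 992 and 1166 CPM in WT vehicle and 3317, 3388 and 1026 CPM in WT tunicamycin, and 1198, 1619 and 848 CPM in LKO vehicle against 3051, 2792, 2242 and 1733 CPM in LKO tunicamycin. The samples fell in the same pattern as for Fga. The mean effects were 1.13 ± 0.25 for Fga, 1.16 ± 0.25 for Fgb and 1.17 ± 0.25 for Fgg, and edgeR's adjusted p were 0.0223, 0.019 and 0.0179. Within WT the effects were 1.30 ± 0.369, 1.31 ± 0.357 and 1.34 ± 0.357, with adjusted p of 0.118, 0.111 and 0.101, and within LKO 0.97 to 1.01 with SEs of 0.337 to 0.348 and adjusted p of 0.275 to 0.296.

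The 3 chains kept their proportions while their level moved. Reads of Fga per read of Fgg ran from 1.36 to 1.51, and of Fgb per read of Fgg from 1.07 to 1.19, over all 13 samples. Over the same samples the fibrinogen share of reads ran from 1.19 to 4.18%. The part of the upstream motif matches in these values was not tested.

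**Figure D5:**
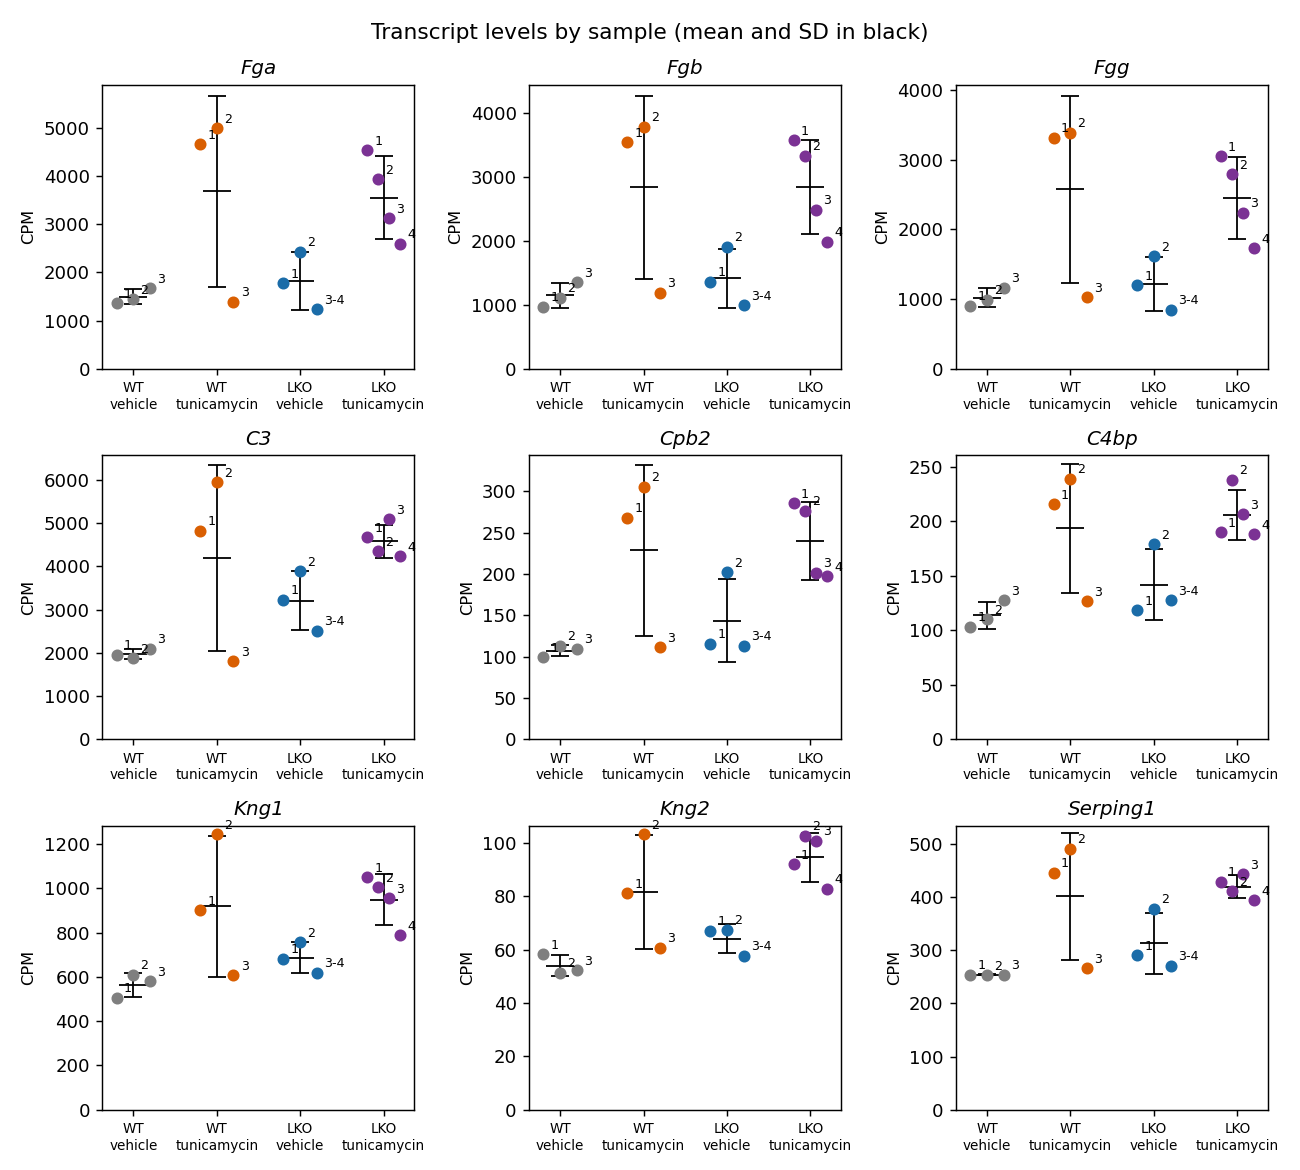
CPM of 9 genes in each sample by group, with the mean and SD in black and sample numbers beside the points; each axis starts at 0. In Fga, Fgb, Fgg, C3 and Cpb2 the point of WT tunicamycin 3 lies with the vehicle points, and in Kng2 it lies above the WT vehicle points.

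Of the 4 fibrinolysis genes 2 were called higher for the mean effect, and all 4 were higher at an unadjusted p under 0.05. Cpb2 encodes the carboxypeptidase that protects fibrin from plasmin, Serpinf2 encodes antiplasmin, Plg encodes plasminogen and Hrg encodes a plasminogen-binding glycoprotein. Cpb2 read 99.6, 113 and 109 CPM in WT vehicle and 268, 306 and 111 CPM in WT tunicamycin. In LKO it read 116, 202 and 113 CPM with vehicle and 286, 276, 202 and 197 CPM with tunicamycin. LKO vehicle 2 reached the lowest tunicamycin samples. The mean effect was 0.92 ± 0.20 (edgeR adjusted p = 0.0223).

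Serpinf2 read 102, 111 and 106 CPM in WT vehicle and 165, 198 and 120.2 CPM in WT tunicamycin, which did not overlap. LKO livers held 147, 159 and 98.3 CPM with vehicle and 181, 173, 179 and 152 CPM with tunicamycin, which overlapped. The mean effect was 0.47 ± 0.13 (edgeR adjusted p = 0.0457). Plg and Hrg had mean effects of 0.26 ± 0.11 and 0.29 ± 0.14 and were not called, with adjusted p of 0.190 and 0.242.

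The antithrombins gave 0 calls of 2. Serpinc1, antithrombin, read 325 to 342 CPM in WT vehicle, 348 to 389 CPM in WT tunicamycin, 336 to 351 CPM in LKO vehicle and 339 to 394 CPM in LKO tunicamycin. Its mean effect of 0.11 ± 0.09 had an edgeR adjusted p of 0.535. Serpind1, heparin cofactor II, had a mean effect of 0.17 ± 0.12. The ratio of Fga to Serpinc1 reads thus ran from 3.51 to 7.06 in the 6 vehicle samples and from 7.63 to 13.4 in 6 of the 7 tunicamycin samples, with WT tunicamycin 3 at 3.96.

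LKO was also compared with WT under vehicle, which asks what the loss of Rbbp5 does without the drug. EdgeR called 0 of the 42 genes, where 0.0415% of all genes were called, and the smallest adjusted p was 0.570, for C3. Unadjusted, 2 of the 42 (C3 and C9) had p under 0.05, both higher in LKO, against 8.15% of all genes (4.71% higher and 3.44% lower). DESeq2 called 0, with 3 at an unadjusted p under 0.05. The median was 0.17 against 0.00483 over all genes, and 32 of the 42 lay above 0, against 50.9%. C3 had a log2 fold change of 0.70 ± 0.309, with an unadjusted p of 0.0370. CPM did not overlap and was higher in LKO for 7 of the 42 (C3, C8a, C9, Serping1, Vtn, Kng1 and Cpb2), against 7.52% of all genes, and for 0 it was lower without overlap, against 7.58%.

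The LKO vehicle samples were uneven among themselves. LKO vehicle 2 had 28 of the 42 genes above every WT vehicle sample (28.3% of all genes tested), LKO vehicle 1 had 20 (29.9%) and LKO vehicle 3-4 had 14 (25%). The acute phase genes Saa1 and Orm2 were also highest in LKO vehicle 2, but for them LKO vehicle 3-4 lay above LKO vehicle 1. Saa1 read 66.5, 1185 and 209 CPM in LKO vehicle 1, 2 and 3-4, and Orm2, an acid glycoprotein, read 17.8, 324 and 32.2 CPM, against 4.67 to 8.02 CPM in WT vehicle. LKO vehicle 2 also lay apart in the FPKM table, with a column total of 99386 against 156509 to 169701 elsewhere. Without LKO vehicle 2 the median of the 42 genes in this comparison was 0.04. The part of these values in the result was not tested.

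LKO was compared with WT after tunicamycin as well. EdgeR called 0 of the 42 genes, where 0.861% of all genes were called, and the smallest adjusted p was 0.107, for C8g. Unadjusted, 2 of the 42 (C8g lower, C6 higher) had p under 0.05, against 15.8% of all genes (7.55% higher and 8.24% lower). DESeq2 and limma on log2(FPKM + 1) called 0, with 2 and 6 at an unadjusted p under 0.05, the latter against 2294 of 16398 genes. The median was -0.01, as over all genes. F12 and F13b did not overlap and were lower in LKO, against 6.58% of all genes, and 0 were higher without overlap, against 6.34%. Of the 42 genes 19 lay above 0, against 48.0%. The side of 0 on which the genes fell depended on scaling and on single livers. With total gene counts as library sizes 37 of the 42 lay above 0 in place of 19, with the all-gene median at 0.14. Without WT tunicamycin 3, 7 of the 42 lay above 0, and the median was -0.15.

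Genes of the ER stress response were called in this comparison. Hspa5 after tunicamycin was -1.78 ± 0.265 in LKO against WT (edgeR adjusted p = 0.0102). Of 9 genes of the ER stress response, 7 were called lower in LKO after tunicamycin and 6 were called higher with tunicamycin in WT, and 0 were called with tunicamycin in LKO. Hspa5 read 117 to 173 CPM in LKO vehicle and 142 to 229 CPM in LKO tunicamycin, at 0.45 ± 0.268 (edgeR adjusted p = 0.544), and 8 of the 9 stress genes lay above 0 with tunicamycin in LKO.

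Relatives of these genes in the same pathways were read from a list of 33 secreted proteins, of which 25 were tested. For the mean tunicamycin effect those called were all higher, and they included Serpina10, Gas6 and Pzp. Within WT and within LKO edgeR called 0, with 8 and 6 at an unadjusted p under 0.05, all higher. Serpina10, the protein Z-dependent inhibitor of factor Xa, had a mean effect of 1.13 ± 0.209 and an edgeR adjusted p of 0.0142. Gas6, a protein S relative, had 1.04 ± 0.232, and Pzp, a broad protease trap, had 0.78 ± 0.192. Serpina10 read 30.3 to 38.8 CPM in WT vehicle and 114, 111 and 42.9 CPM in WT tunicamycin, so WT tunicamycin 3 lay apart for it as well. Serpine2, an inhibitor of thrombin and plasminogen activators made by many cell types, was lower in LKO with and without the drug. It read 5.77 to 8.62 CPM in WT vehicle and 1.78 to 2.92 CPM in LKO vehicle, at -1.73 ± 0.276 (edgeR adjusted p = 0.036).

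Other lists showed where else the pathway stood. Of 18 membrane receptors and regulators, such as the C3a receptor and tissue factor, 9 were tested and 0 were called for the mean effect by edgeR, with 3 at an unadjusted p under 0.05. The 3 macrophage C1q genes gave 0 calls for the mean effect, with 1 at an unadjusted p under 0.05. Of 11 genes for the maturation and export of clotting factors, 1 was called higher for the mean effect, Hspa5 with 1.01 ± 0.197 and an edgeR adjusted p of 0.016. Mcfd2, part of the cargo receptor for factors V and VIII, had an effect of 0.53 ± 0.119 in WT, with an adjusted p of 0.0598, and of 0.05 ± 0.109 in LKO.

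Markers of liver cell types were read beside these values, since in bulk tissue a change in cell number and a change in RNA per cell cannot be told apart. The summed CPM of 9 hepatocyte genes ran from 17397 to 20226 in WT vehicle, 15224 to 25599 in WT tunicamycin, 15741 to 23606 in LKO vehicle and 15063 to 20581 in LKO tunicamycin, and 0 of the 9 were called for the mean effect. For LKO against WT after tunicamycin 1 of the 9 was called lower, against 0.861% of all genes called. In that comparison 4 were lower at an edgeR unadjusted p under 0.05, against 8.24% of all genes. The summed CPM of 11 Kupffer cell and macrophage genes was 60.1 to 71.9 in WT vehicle, 67.8 to 92.2 in WT tunicamycin, 46.8 to 78.1 in LKO vehicle and 74.2 to 141 in LKO tunicamycin. Of these 11 genes 0 were called, and with tunicamycin in LKO 11 lay above 0 and 7 were higher at an unadjusted p under 0.05. Sums of 3 neutrophil genes were 0.128 to 0.875 in WT vehicle, 0.154 to 7.84 in WT tunicamycin, 0.474 to 2.04 in LKO vehicle and 3.37 to 6.64 in LKO tunicamycin. Of these 3 genes, S100a8 and S100a9 were tested and both called higher for the mean effect. The sum of 5 bile duct genes was 8.60 to 11.7 in WT vehicle, 8.49 to 42.5 in WT tunicamycin, 17.4 to 55.2 in LKO vehicle and 35.8 to 111 in LKO tunicamycin. Only 2 of these 5 genes were tested, and edgeR called 0 of them in every comparison. Their log2 fold changes with tunicamycin were 0.65 and 1.68 in WT but -0.10 and 0.81 in LKO. For LKO against WT they were 0.52 and 2.23 with vehicle but -0.23 and 1.36 after tunicamycin. Sums for sinusoidal endothelium stayed within 86.1 to 131 over all samples. Those of 9 stellate cell and fibroblast genes were 78.1 to 127 in WT vehicle and 129 to 174 in LKO vehicle. With tunicamycin the stellate sums were 105 to 141 in WT and 116 to 183 in LKO. Lymphocyte genes summed to 3.20 to 6.32 CPM and platelet genes to at most 2.08 CPM. No listed marker named in the count files was at 0 in all 13 samples. For the mean effect the acute phase list moved with the fibrinogen genes, with all 6 genes called higher and a WT tunicamycin range of 1305 to 9581 CPM. The lists parted for LKO against WT with vehicle. There 6 of the 6 acute phase genes were higher at an edgeR unadjusted p under 0.05, against 4.71% of all genes. Of the 3 fibrinogen genes 0 were, and the median log2 fold changes were 4.02 and 0.28. EdgeR called 0 genes of either list there. The acute phase sum was 862 to 1254 CPM in WT vehicle and 1563 to 6655 CPM in LKO vehicle. Saa1 and Orm2 were highest in LKO vehicle 2, and for Saa1 LKO vehicle 1 lay inside the WT vehicle range. The part of these cell types and genes in the results was not tested.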

How the data were processed

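Polyadenylated liver RNA was sequenced in 14 libraries. The submitters' processing notes name Trimmomatic, STAR, Cufflinks and the mm10 build, with no versions given in the sources used here. The authors deposited raw read counts per gene for each library, of which the column of reads on the gene's strand was used, and 1 table of FPKM values. Log2 values were computed here from the counts deposited by the authors and from their FPKM values. No per-sample column was left unassigned (0 such columns), and 277 names with more than 1 entry in the FPKM table were left out.

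Counts were fitted in edgeR 4.0.16 (R 4.3.3) with filterByExpr, TMM scaling, a mean per group and the quasi-likelihood test over 13 samples, adjusted by Benjamini-Hochberg over 9644 genes at a threshold of 0.05. The common biological coefficient of variation was 0.155, with 9 residual degrees of freedom. A standard error is the log2 fold change divided by the square root of F. Log2 CPM used a prior count of 2. Scripts were tested on simulated data. Alternatives were DESeq2 1.42.0, limma 3.58.1 on log2(FPKM + 1) and log2(FPKM + 0.1), total-count scaling, no filter, a replicate block, 14 separate libraries and each sample left out. The mean tunicamycin effect over both genotypes was added after seeing the data, as was leaving the LKO vehicle 2 column out of the FPKM table.

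Every member may be named. In each comparison those called, or at an unadjusted p under 0.05 (at most 8 by smallest p), were to be described in full, and others were added. The members, lists and roles were chosen with earlier results of these data known. Deposited locus starts count from 0 and are printed from 1. Protein sequences were not analysed here. A result on 1 gene of the secreted list is not reported here.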

Additional observations from a re-analysis of the deposited data

Results flagged for a closer look

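Among the 42 genes in the 4 LKO tunicamycin livers, 2 genes had 1 liver far from the other 3, and both times it was LKO tunicamycin 2. Masp1 read 40.5 CPM there and 33.2, 33.8 and 33.8 CPM in the others, a gap of 0.91 of the whole range. Mbl1 read 41.3 CPM there and 28.5, 29.1 and 29.2 CPM in the others, a gap of 0.946 of the range. Both exceed Dixon's 95% critical value for 4 samples, which chance passes in about 5% of groups, so 2 of 42 is near what chance gives.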

How the results depend on the processing

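The 3 to 4 samples per group and single livers limit every count here. F7 and C2, with few reads, had SEs of 0.12 and 0.08 for the mean effect. These lay below the 0.25 of Fga, Fgb and Fgg. Called members of the 42 within WT were 0 by edgeR, 10 by DESeq2 and 7 with no filter on low counts, and leaving out 1 sample gave 0 to 15. Within LKO they were 0, with 1 by DESeq2 (Kng2), 2 with no filter (Fgb and Fgg) and 0 to 2 leaving out 1 sample. For LKO against WT with vehicle, after tunicamycin and for the interaction, leaving out 1 sample gave 0 to 0. For the mean tunicamycin effect the 10 calls became 0 on log2(FPKM + 1), 0 on log2(FPKM + 0.1), 0 with the LKO vehicle 2 column left out and 5 with FPKM of at least 1 (8.79% of all genes), of which F13b was lower. Leaving out 1 sample gave 1 to 18, 1 without WT vehicle 1 or WT tunicamycin 1 and 18 without WT tunicamycin 3, where 10.9% of all genes were called. The cause was not tested.

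Total-count scaling moved the median of all genes to -0.177 in WT, 0.14 for LKO against WT after tunicamycin, 0.127 for the interaction and -0.106 for the mean effect. The median log2 fold change of the 42 genes in WT moved from 0.28 to 0.0787 with it. For LKO against WT after tunicamycin that median moved from -0.01 to 0.15 with total counts, 0.202 on log2(FPKM + 1) with or without the filter or LKO vehicle 2, and 0.224 on log2(FPKM + 0.1). For the interaction it moved from -0.19 to -0.0397 with total counts, -0.0327 on log2(FPKM + 1) with or without the filter, -0.0342 on log2(FPKM + 0.1) and 0.0783 with the LKO vehicle 2 column left out. Leaving out 1 sample gave medians of 0.126 to 0.423 in WT, 0.0735 to 0.170 in LKO, 0.0390 to 0.2 with vehicle, -0.148 to 0.158 after tunicamycin, -0.306 to -0.0470 for the interaction and 0.148 to 0.283 for the mean effect.

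Deviations of same-numbered samples from their group means correlated at r from -0.118 to 0.141 over 18 pairs, 3 over 0.1. Those of differently numbered samples correlated at r from -0.221 to 0.202. With 3 or 4 samples per group this cannot settle whether the numbers pair the animals. With a replicate block edgeR called 0 members in WT, in LKO, in both genotype comparisons and for the interaction, with 17, 13, 1, 2 and 0 at an unadjusted p under 0.05, against 1461, 1165, 842, 1363 and 459 of 9644 genes. It called 10 for the mean effect (4.84% of all genes), where Vtn entered and C3 left.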
